A study of Rattus norvegicus with 12 samples.

Results

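Old rats with a semi-rigid external fixator (OSR) were compared with old rats with a rigid one (OR), 3 arrays against 3 of the 12 arrays of the series. Female Sprague-Dawley rats of 52 weeks had a midshaft osteotomy of the left femur with a 1.5 mm gap, and the fracture hematoma was taken at day 3. The fixator stood 15 mm from the bone in OSR and 7.5 mm in OR. Each array carried RNA pooled from 3 animals, so that 9 animals stood behind each group. The other 6 arrays held rats of 12 weeks with semi-rigid (YSR) or rigid (YR) fixation and were used for comparison. Of the 31042 probe sets that do not belong to the array controls, the 12500 with a mean log2 signal of at least 8 over the 6 old arrays are called bright. A probe set separated the sides when all 3 arrays of one group lay above all 3 of the other. At the limit of 8, Add3 (8.001) was just inside and Dennd1a (7.993) just outside among probe sets with OSR higher, and Znrf1 (8.015) and Enox2 (7.997) among those with OR higher.

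The fracture hematoma is the blood clot that fills the gap after a bone breaks. Neutrophils and macrophages enter it first and clear blood cells and debris, and vessels, pericytes and matrix-forming cells grow in from the periosteum, the marrow and the torn muscle around it. Fixation stability sets how far the fragments move against each other and is known to influence vessel growth and cartilage formation in the callus. The labelled tissue carried its expected markers, since the adult beta-globin Hbb had a log2 signal between 14.77 and 16.12 and the macrophage antigen Cd68 between 13.02 and 13.91 on the 6 old arrays. In pooled bulk RNA, fewer cells of a type and less RNA per cell cannot be told apart.

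Muscle RNA differed widely between the pools of each side. The mean log2 signal of 43 genes of mature skeletal muscle was 6.32, 11.02 and 9.88 in OSR arrays 1, 2 and 3, and 9.73, 5.96 and 8.40 in OR arrays 1, 2 and 3. Thus 1 pool of each side, OSR array 1 and OR array 2, held little muscle RNA, and none of the 43 genes was at the floor of the signal scale on any array. A second property stood apart as well. The Gapdh 3' signal exceeded the 5' signal, a sign of shortened RNA, by 2.96 (log2) in OR array 1 and by 6.69 in YSR array 1, against 0.33 to 0.49 in the other 5 old arrays. In the young it was also higher in all 3 YR arrays (1.02 to 1.59) than in YSR arrays 2 and 3 (0.33 and 0.42).

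**Figure D1:**
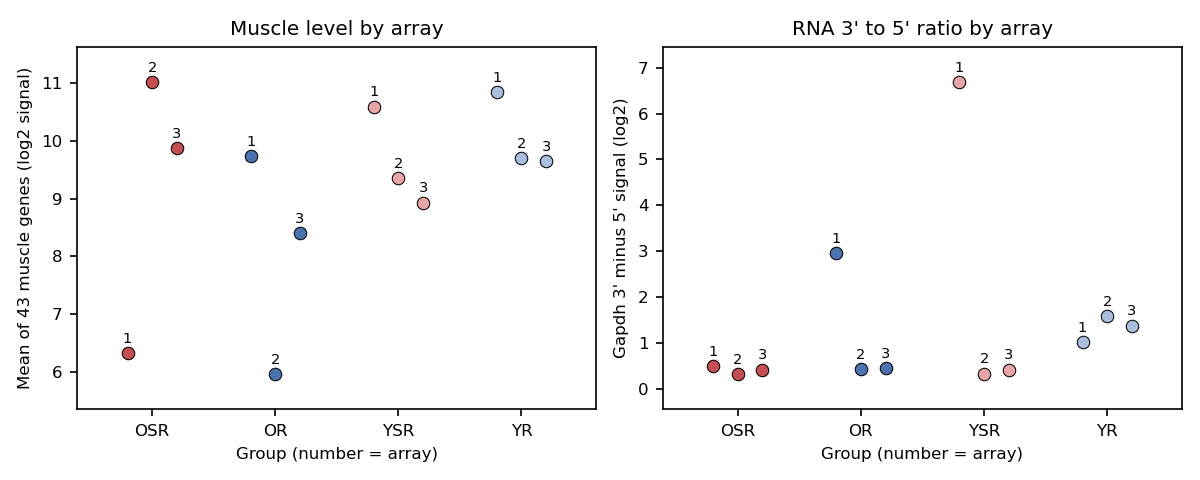
Mean log2 signal of 43 muscle genes (left) and log2 ratio of the Gapdh 3' to 5' control probe sets (right) for each of the 12 arrays, with 1 point per array, numbered by array within its group. OSR array 1 (6.32) and OR array 2 (5.96) lie lowest for muscle, and OR array 1 (2.96) and YSR array 1 (6.69) lie highest for the Gapdh ratio.

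No probe set passed an adjusted p of 0.05 between OSR and OR in limma (0 of 31042, 0%), and the smallest adjusted p over all probe sets was 0.744. Without adjustment, 1634 (5.26%) had p under 0.05, 754 (2.43%) with higher signal in OSR and 880 (2.83%) with higher signal in OR. The methods' t-test gave 0 adjusted and 1519 unadjusted calls. The values below therefore describe these 6 pools.

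Among the bright probe sets, 675 of 12500 (5.4%) had every OSR array above every OR array, and 855 (6.84%) had every OR array above every OSR array. Counted by gene, with 1 probe set for each of 8342 genes, the brightest, these were 397 (4.76%) and 630 (7.55%). Over all 31042 probe sets, dim ones included, the shares were 5.04% and 5.74%. The differences were mostly small, with a median of 0.40 (log2) among the first and -0.29 among the second. A difference of at least 1, a fold of 2, was reached by 25 and 28 probe sets. Without OR array 1 these counts were 14 and 29, and with the Gapdh ratio as a covariate 12 and 28. The probe set with the widest gap had no gene symbol in the annotation used here (1375422_at). Its log2 signal was 14.57, 13.25 and 13.63 in OSR against 11.44, 11.48 and 11.24 in OR, and 13.59 and 13.46 in YSR arrays 2 and 3 against 10.55 to 11.40 in YR, with 10.54 in YSR array 1.

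Of the genes named for a higher signal in each OSR pool, Lyve1, a hyaluronan receptor of lymphatic endothelium and of some tissue macrophages, had log2 signals of 10.36, 10.82 and 12.14 in OSR arrays 1 to 3 and 9.49, 10.03 and 9.52 in OR arrays 1 to 3. The OSR mean exceeded the OR mean by 1.43 (standard error 0.47, adjusted p = 0.896 from limma), with OSR array 3 far above the other two. The other probe set of Lyve1 had 11.06, 11.88 and 12.62 against 10.94, 10.47 and 10.63, also without overlap. Without OSR array 3 the difference of the first probe set was 0.91.

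Abca1, which exports cholesterol from cells, had 10.59, 10.64 and 11.28 in OSR and 10.10, 9.58 and 9.96 in OR, a difference of 0.96 (standard error 0.23, adjusted p = 0.872 from limma). Of its 4 probe sets, 3 separated the sides, with differences of 0.55, 0.86 and 0.96, and the brightest one overlapped (0.39). Stab1, which takes up modified proteins and lipoproteins in macrophages and sinusoids, differed by 0.83, and its OR arrays lay within 11.43 to 11.56. With a probe set of the transporter Abca2 it had the lowest adjusted p of all 31042 probe sets (0.744 from limma). Pla2g2d, a secreted phospholipase of immune cells, had 9.76, 10.70 and 10.88 in OSR and 9.59, 8.32 and 9.70 in OR. The groups only just failed to overlap there, since OSR array 1 was 0.07 above OR array 3. Ncf4, a subunit of the phagocyte NADPH oxidase, stood at 11.44, 11.43 and 11.51 in OSR and 10.82, 10.44 and 10.97 in OR.

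Adipor2, a receptor for adiponectin, had at one probe set 8.68, 8.67 and 8.68 in OSR and 7.99, 7.72 and 7.76 in OR. Its brightest probe set overlapped (0.39, and -0.02 without OR array 1), and the dimmest separated by 0.31. Atrnl1, a membrane protein related to attractin, had 9.81, 9.77 and 9.90 against 8.84, 9.04 and 9.05. The differences were 0.85 and 0.86, with an SD of the pools of at most 0.15 in either group and adjusted p = 0.872 from limma. Both genes were named for a wide gap, a rule that favours a small SD on these 6 arrays. In YSR and YR the SDs were 0.37 and 0.37 for Adipor2, and 0.35 and 0.24 for Atrnl1. Ltbp2, a protein of elastic microfibrils, Gchfr, the feedback regulator of GTP cyclohydrolase, and the tetraspanin Tspan5 differed by 0.88, 0.80 and 0.87, each without overlap. The other 2 bright probe sets of Tspan5 overlapped (0.21, the brightest, and 0.56). When OR array 1 was left out, the differences of the separating probe sets of these 5 genes named first were between 0.79 and 0.98.

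A second set of genes with higher OSR signal had probe sets that were lowest of the old arrays in OR array 1, the one of high Gapdh ratio. Por, the reductase that hands electrons to cytochromes P450, had 9.47, 9.04 and 9.55 in OSR but 4.92, 8.45 and 8.71 in OR arrays 1, 2 and 3. The difference went from 2.00 to 0.78 without OR array 1, and the other probe set of Por overlapped (0.37). Tgfb1, which encodes the growth factor TGF-beta 1, had 10.28, 10.41 and 10.59 in OSR and 6.97, 9.18 and 9.74 in OR, and its difference of 1.80 became 0.97 without OR array 1. Agpat1, an enzyme of phosphatidic acid synthesis, went from 1.44 to 0.20 at one probe set (OR array 1 at 4.92), while its brighter probe set had 8.86, 9.43 and 9.15 in OSR and 8.09, 8.05 and 8.44 in OR. For the G protein subunit Gnai2 the difference went from 1.29 to 0.53 without OR array 1. With the Gapdh ratio as a covariate it was 1.14, and YSR array 1 lay 0.39 below the mean of YSR arrays 2 and 3. For Ptpa, an activator of protein phosphatase 2A, the difference went from 1.17 to 0.73 without OR array 1. Its brighter probe set differed by 0.21 and overlapped.

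Tmem86a, a lysoplasmalogenase, the transcription factor Zeb2, the histone demethylase Kdm6b and the membrane-fission protein Dnm2 had OR array 1 lowest too, with differences of 1.19, 1.16, 1.14 and 1.08, and of 0.67, 0.67, 0.53 and 0.87 without it. The value for Zeb2 came from the dimmest of its 5 bright probe sets. Of these, 2 separated, the dimmest and the brightest (0.43), and at the brightest OR array 1 was not the lowest. The others differed by 0.20, 0.30 and 0.80 with overlap. The brightest probe set of Tmem86a overlapped (0.38). The young array of high Gapdh ratio, which had no part in choosing these probe sets, was low at more of them than elsewhere. YSR array 1 lay at least 1 (log2) below the mean of YSR arrays 2 and 3 at 106 of the 675 probe sets (15.7%), against 863 of all 12500 bright probe sets (6.9%) and 6 of the 855 with OR higher (0.702%). Among those with a difference of at least 1 the count was 15 of 25 with OSR higher and 1 of 28 with OR higher. Over all 135 bright probe sets with a difference of at least 1 in size, overlapping ones included, it was 40. The widest-gap probe set 1375422_at and Lyve1 were also lower in YSR array 1, although OR array 1 (11.44 and 9.49) lay within or close to the range of the other OR arrays there. With the Gapdh ratio as a covariate in the fit, Por went from 2.00 to 1.52 and Tgfb1 from 1.80 to 1.43. Agpat1 went from 1.44 to 0.80 and Dnm2 from 1.08 to 0.57. Stab1, Adipor2 and Abca1 at the probe sets above went from 0.83, 0.85 and 0.96 to 0.83, 0.79 and 0.90. OR array 1 and YSR array 1 are single pools, and whether shortened RNA accounts for any of these differences was not tested.

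**Figure D2:**
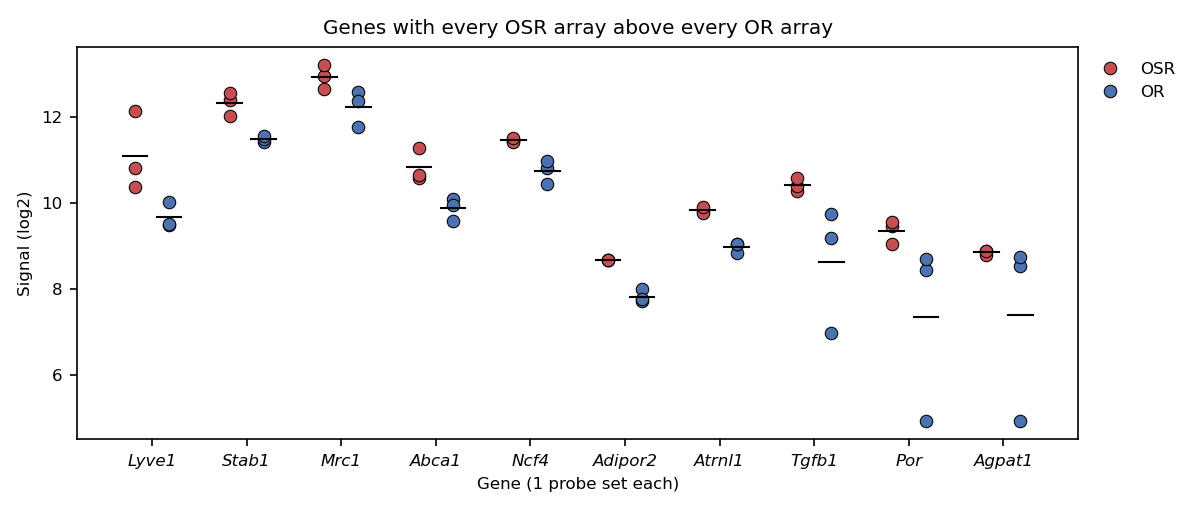
Log2 signal of 10 genes in the 3 OSR and 3 OR arrays, with 1 point per array and a line at each group mean. The groups do not overlap at any of these genes, and at Tgfb1, Por and Agpat1 a single OR array (6.97, 4.92 and 4.92) lies far below the others.

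Of the genes named for a higher signal in each OR pool, Ogn, which encodes osteoglycin, a small leucine-rich proteoglycan of connective tissue, had 7.84, 7.14 and 7.43 in OSR and 8.95, 8.57 and 9.49 in OR, a difference of -1.54 (standard error 0.41, adjusted p = 0.872 from limma). Its 4 bright probe sets all separated the sides, by -1.15 to -1.54, and without OSR array 3 the first still differed by -1.52. Col11a1, a fibrillar collagen of cartilage, differed by -1.41, with 10.05, 9.58 and 8.47 in OSR and 11.42, 10.15 and 10.75 in OR, and its next bright probe set overlapped. Fap, a serine protease of activated fibroblasts, had 9.27, 8.44 and 8.37 against 9.94, 9.43 and 9.62. It and Pdgfrb, the PDGF receptor beta, were the only separating genes of the 21 bright ones of fibroblasts and collagen matrix, of which 13 had a higher mean in OR and 8 in OSR (median -0.17). Pdgfrb differed by -0.92, and by -0.56 without OSR array 3. Outside the list, the matrix genes Dpt (0.69) and Fbln2 (0.55), like Ltbp2, separated with OSR higher.

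Tagln, an actin-binding protein of smooth muscle, had 11.63, 10.94 and 9.87 in OSR and 12.03, 11.93 and 12.12 in OR, a difference of -1.21. The smooth muscle actin Actg2 had 9.73, 9.30 and 7.60 against 9.81, 10.07 and 10.01. In both genes the OR arrays lay close together and OSR array 3 lay far below, and without it the differences were -0.74 for Tagln and -0.45 for Actg2, against -1.21 and -1.09 with it. Rgs5, a regulator of G protein signalling in pericytes, differed by -0.88 and the adhesion molecule Mcam by -0.76, or by -0.45 without OSR array 3. Gja4, a connexin of arterial endothelium, had 8.85, 7.52 and 8.48 in OSR and 9.85, 10.18 and 8.86 in OR, so that OSR array 1 and OR array 3 almost met.

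The neuropeptide galanin (Gal) had 9.36, 9.69 and 7.95 in OSR and 11.05, 10.49 and 10.17 in OR, a difference of -1.57. Cxcl13, which attracts B cells, had 10.38, 9.88 and 8.44 against 10.53, 11.23 and 10.77, and its difference went from -1.28 to -0.71 without OSR array 3. Ccl9, a chemokine for myeloid cells, differed by -0.67. Cxcl13 and Ccl9 were the separating genes of 22 bright chemokines and inflammatory mediators, of which 13 had a higher mean in OR and 9 in OSR, and the growth factors Tgfb1 and, at 2 of 3 bright probe sets, Csf1 separated with OSR higher. The heparin-binding factor pleiotrophin (Ptn) had 10.56, 9.27 and 10.01 against 11.36, 11.41 and 10.87. Nrep had 12.13, 11.82 and 10.20 against 12.57, 13.14 and 12.73, and its difference went from -1.43 to -0.84 without OSR array 3.

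Narrow values, which naming by the widest gap favours, marked Septin4 and Gsap. Septin4, a cytoskeletal GTPase, had 8.13, 8.34 and 8.02 in OSR and 8.91, 8.96 and 8.92 in OR. Gsap had 9.30, 9.08 and 9.49 against 10.03, 9.94 and 10.01. Sorbs2, an adaptor of actin fibres, differed by -1.14. The other genes chosen by size or gap were Cxcl3, G0s2 (-1.33), the osteoclast exchanger Slc9b2 (-1.76) and both probe sets of Mmp9 (-1.92 and -1.87). Cxcl3, chosen by gap, differed by -1.06 at 1 of 3 bright probe sets, and by -0.48 and -0.56 with overlap at the others. OSR array 3 was the lowest OSR array at 362 of the 855 probe sets, against 3729 of all 12500 bright probe sets. Without it, 16 of the 855 in place of 28 reached a difference of -1.

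**Figure D3:**
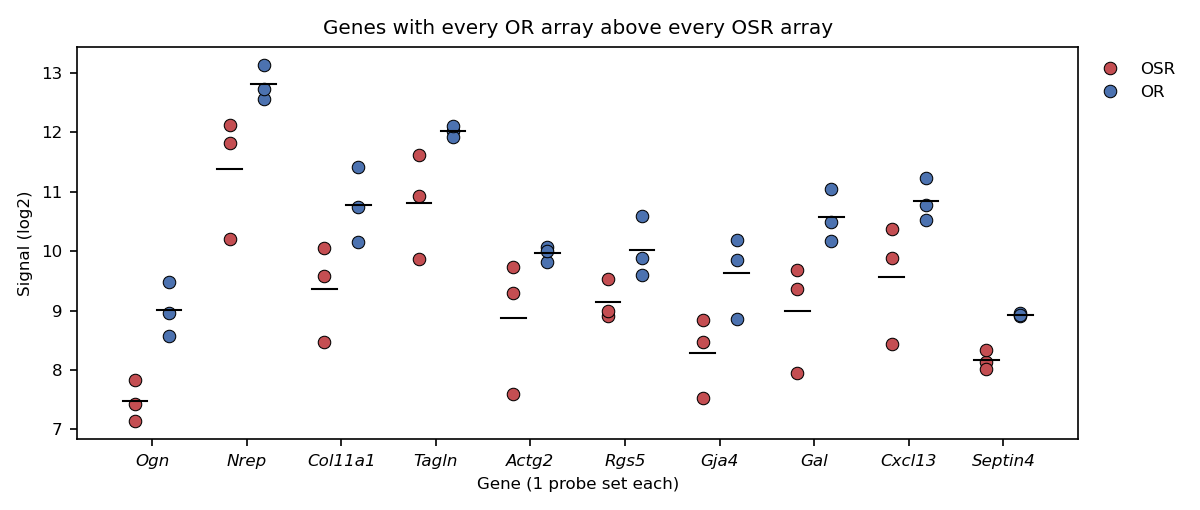
Log2 signal of 10 genes in the 3 OSR and 3 OR arrays, with 1 point per array and a line at each group mean. Every OR array lies above every OSR array, the OR arrays of Tagln (11.93 to 12.12) and Septin4 (8.91 to 8.96) lie close together, and 1 OSR array of Actg2 (7.60) lies far below the others.

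To show the sequence in front of genes from both sides, start regions were taken from the RefSeq table (GRCr8), 250 bases before to 50 after the annotated start. They are Lyve1 and Abca1 (higher in OSR) and Ogn and Cxcl13 (higher in OR). All are on the minus strand, and they are printed 5' to 3' at chr1:174410928-174411227, chr5:72596424-72596723, chr17:15258946-15259245 and chr14:13917871-13918170. Capitals mark the letters TATAAA on either strand, the TATA box motif.
Lyve1: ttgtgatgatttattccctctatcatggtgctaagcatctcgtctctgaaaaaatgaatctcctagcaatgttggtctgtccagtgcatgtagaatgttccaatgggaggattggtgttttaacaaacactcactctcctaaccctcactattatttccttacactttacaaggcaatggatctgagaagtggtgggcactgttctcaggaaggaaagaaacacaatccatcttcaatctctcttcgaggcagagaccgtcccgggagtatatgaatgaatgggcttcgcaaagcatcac
Abca1: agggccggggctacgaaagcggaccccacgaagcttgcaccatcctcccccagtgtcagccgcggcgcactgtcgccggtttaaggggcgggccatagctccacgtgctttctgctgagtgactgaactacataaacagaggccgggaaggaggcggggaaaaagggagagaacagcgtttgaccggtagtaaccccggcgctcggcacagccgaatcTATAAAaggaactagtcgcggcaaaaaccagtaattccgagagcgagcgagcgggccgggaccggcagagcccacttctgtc
Ogn: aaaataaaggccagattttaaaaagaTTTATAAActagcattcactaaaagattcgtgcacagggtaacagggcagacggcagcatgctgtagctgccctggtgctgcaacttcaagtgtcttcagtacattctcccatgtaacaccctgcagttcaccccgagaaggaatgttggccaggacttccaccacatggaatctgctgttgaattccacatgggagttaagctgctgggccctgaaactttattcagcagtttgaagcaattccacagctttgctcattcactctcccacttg
Cxcl13: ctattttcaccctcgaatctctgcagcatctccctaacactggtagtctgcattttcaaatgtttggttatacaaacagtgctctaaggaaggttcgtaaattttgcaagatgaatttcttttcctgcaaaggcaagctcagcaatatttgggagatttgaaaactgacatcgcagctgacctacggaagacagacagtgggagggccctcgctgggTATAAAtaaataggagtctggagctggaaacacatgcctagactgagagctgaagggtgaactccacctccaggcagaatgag
The motif began at position -32 from the start in Abca1 and at -33 in Cxcl13. In Ogn the matches on both strands overlapped and began at -224 and -222. Among all 33469 start regions, 14.2% held it, as did 1 of 16 matched genes named with OSR higher and 3 of 9 with OR higher (Cxcl13, Gal and Ogn). The AP-1 site TGACTCA or TGAGTCA was in 0 of 16 and in 1 of 9 (Ptn), against 4.63% of all. The CArG box, which serum response factor binds in contractile genes, was in 0 of 16 and 0 of 9 (1.64% of all). The PU.1 site GAGGAAGT was likewise in none (2.42% of all). These genes were named by size or gap, so the smooth muscle and pericyte genes Tagln, Actg2, Rgs5 and Mcam were not among them. Only 2 of these 4 had a start region available, and 0 of 2 held the CArG box. The counts therefore do not show whether contractile genes higher in OR carry it.

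The gene lists were read at the brightest probe set of each gene. Over all 8342 bright genes the median difference was -0.03, 44.7% had a higher mean in OSR and 55.3% in OR, and 3.09% and 3.86% had an unadjusted p under 0.05 with OSR or OR higher. Of 11 bright genes of smooth muscle and pericytes, 8 had a higher mean in OR and 3 in OSR, with a median of -0.76. Every OR array was higher at 4 of them (Tagln, Actg2, Rgs5 and Mcam), and none had the reverse. Tpm1, another of these genes, differed by 1.02 with overlap, and by -0.08 with muscle level as a covariate. The summed signal of the list overlapped, with 11789, 28888 and 15147 in OSR and 24679, 13877 and 15135 in OR. Of 19 bright genes of endothelium and angiogenesis, 18 had a higher mean in OR, with a median of -0.56. In that list, 9 genes had an unadjusted p under 0.05 with OR higher in limma. Only Plvap, a protein of fenestrated vessels, separated the sides. The endothelial genes Sox17, Cldn5, Tek and Pecam1 differed by -1.42, -1.31, -1.06 and -1.001 and overlapped because OSR array 1 was above OR array 3. The summed endothelial signal was 21546, 16506 and 11937 in OSR arrays 1 to 3 and 22859, 31656 and 17988 in OR, and the muscle-poor pool was the highest on each side. With muscle level as a covariate the endothelial median was -0.32 and that of smooth muscle and pericytes -0.64.

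On the other side, 16 of 19 bright macrophage genes had a higher mean in OSR, with a median of 0.45, and 3 separated the sides. These were Stab1, the mannose receptor Mrc1 (difference 0.70) and Arg1, which breaks down arginine (0.62). The summed macrophage signal ran from 170485 to 233578 in OSR and from 168487 to 245628 in OR and overlapped. Of the defining genes, Cd68 differed by 0.27 and Csf1r, the receptor for macrophage growth factor, by 0.14, both with overlap. With muscle level as a covariate the median was 0.29. F13a1 of the platelet list, the A subunit of clotting factor XIII, had 12.09, 12.24 and 12.45 in OSR and 10.77, 11.52 and 11.73 in OR. OR array 1 was its lowest and YSR array 1 lay 1.86 below the other YSR arrays. The other 5 bright genes of that list had a higher mean in OR, and the median of all 6 was -0.13. The myeloid and adipocyte transcription factor Cebpa differed by 0.58 and the metalloprotease Adam8 by 0.60, both without overlap.

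Of 25 bright genes of hypoxia and glycolysis, 21 had a higher mean in OSR and 3 separated, the phosphofructokinase Pfkl (0.87), the pyruvate dehydrogenase kinase Pdk1 (0.41) and lactate dehydrogenase Ldha (0.27). The largest difference of this list went the other way, at Epas1 (-1.19, higher in OR with overlap), which is also in the endothelium list. The list's median was 0.34, and 0.23 with muscle level as a covariate. All 12 erythroid genes had a higher mean in OR (median -0.60) and none separated. Their mean log2 signal in OSR array 1, 11.90, lay within the range of the OR arrays (11.27 to 12.14), and with muscle level as a covariate the median was -0.32. The haemoglobin-stabilising protein Ahsp had 12.95, 10.71 and 11.43 in OSR and 12.81, 13.21 and 12.09 in OR. Of 31 proliferation genes 27 had a higher mean in OR, by a median of -0.25 (-0.15 with the muscle covariate), and the kinase Cdk1 alone separated. All 7 osteoblast genes had a higher mean in OR (median -0.33) and none separated. Of 10 osteoclast genes 7 had a higher mean in OR, and Mmp9 and Slc9b2 separated. Acp5, the acid phosphatase of osteoclasts, differed by -0.69, the collagen-cleaving cathepsin K (Ctsk) by -0.40, the collagenase Mmp13 by -1.44 and bone sialoprotein (Ibsp) by -1.52, all with overlap. Without OR array 1, Acp5 differed by -0.37, Ctsk by -0.03 and Ibsp by -0.52, and Mmp13 by -1.30. The adipocyte hormone adiponectin (Adipoq) had 9.87, 8.12 and 6.80 in OSR and 8.64, 9.49 and 10.13 in OR.

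In the other lists few genes separated. Of 22 mitochondrial genes only Cs and Idh2, both of the citric acid cycle, did, by -0.10 and -0.29, and a dimmer bright probe set of Cs separated the other way (0.20). Ifit3 (-0.79) was the only one of 16 interferon genes, of which 15 had a higher mean in OR. Lef1, a nuclear partner of Wnt signalling, was 1 of 2 separating genes in the list of BMP, TGF-beta, activin and Wnt signalling (-0.35), and Tgfb1 was the other. None of 22 mechanoresponsive and immediate early genes and none of 6 neutrophil genes separated.

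**Figure D4:**
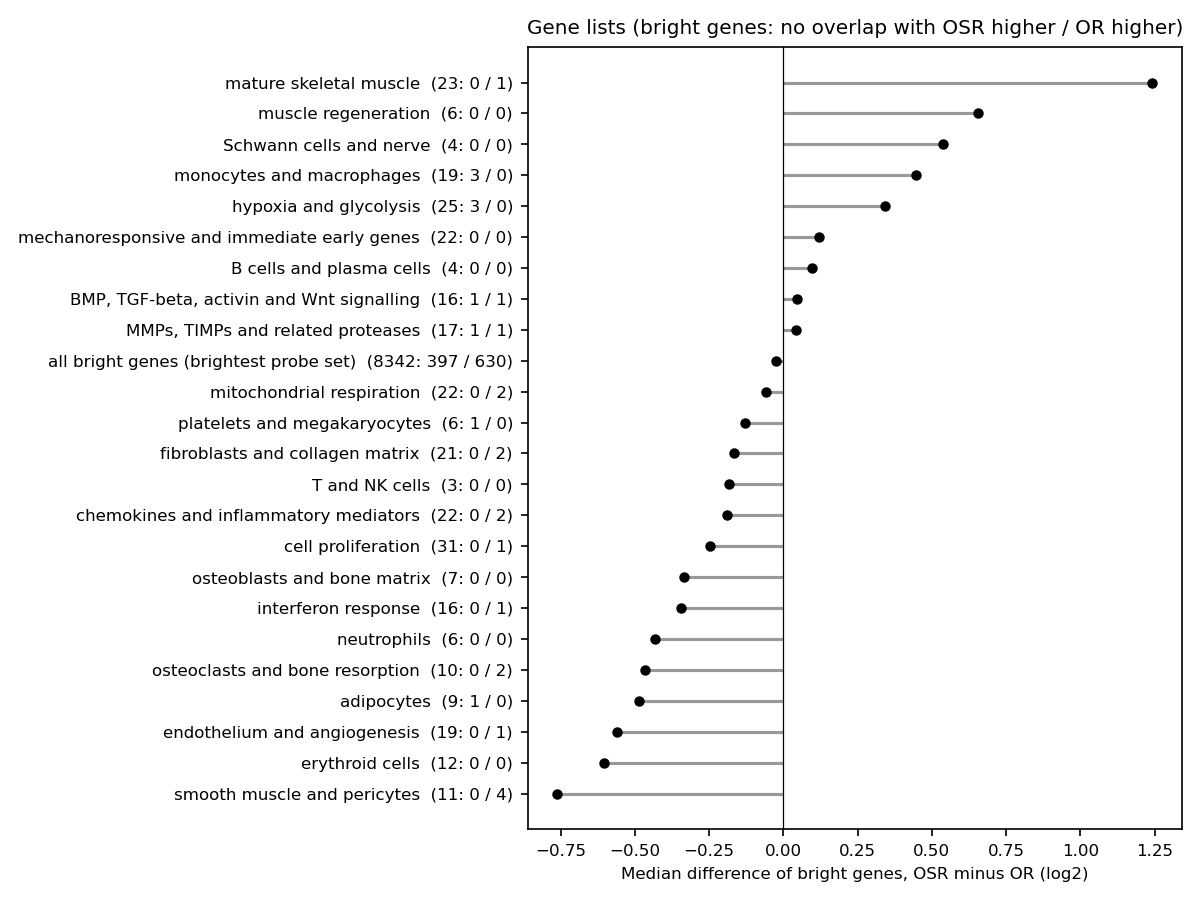
Median difference between OSR and OR (log2, horizontal axis) over the bright genes of each list with at least 3 of them, 1 probe set per gene. The numbers beside each name give the bright genes and, after the colon, those with every OSR array higher and every OR array higher. Smooth muscle and pericytes lie lowest (-0.76), muscle highest (1.24) and all bright genes close to 0 (-0.03).

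The muscle genes had the largest median difference of the lists and, with 1 exception, did not separate the sides. Creatine kinase (Ckm) had 7.67, 13.33 and 12.01 in OSR arrays 1 to 3 and 11.75, 4.72 and 8.42 in OR arrays 1 to 3, a mean difference of 2.71 with wide overlap. The fast myosin heavy chain Myh4 had 6.06, 13.07 and 12.83 against 12.49, 7.17 and 7.39, and the skeletal actin Acta1 9.24, 15.23 and 14.34 against 14.53, 9.06 and 13. The calcium buffer parvalbumin (Pvalb), below the limit of 8, had 5.70, 10.15 and 8.75 against 8.37, 2.81 and 3.07. Of 23 bright muscle genes 20 had a higher mean in OSR (median 1.24). None of them had every OSR array higher, and 1 had every OR array higher, the tropomyosin Tpm2 (11.88, 12.04 and 11.30 against 12.32, 12.37 and 12.64), which smooth muscle and fibroblasts also express. The Myh1 probe set stayed between 13.02 and 14.01 on all 6 arrays and did not follow the other muscle genes.

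With muscle level as a covariate in the fit over 12 arrays, the median difference was 0.40 in the 675 probe sets and -0.29 in the 855. These were the same as without it to 2 decimals. None changed sign, against 1210 of all 12500 bright probe sets. Muscle level overlapped between the sides, so probe sets chosen for separating them can hardly change sign, and this follows in part from the rule. The numbers with a difference of at least 1 went from 25 to 38 and from 28 to 26. Without the 2 muscle-poor arrays, the medians were 0.44 and -0.30 and the numbers with a difference of at least 1 were 47 and 40, a direction that the choice of probe sets fixes. Outside the list, 81 of 12477 bright probe sets (0.649%) followed muscle level at an adjusted p under 0.05 in limma, and none of these was among the 675 or among the 854 remaining with OR higher. A probe set that follows muscle varies within each side and can hardly separate them, so this count follows in part from the rule. Of the named genes, Mmp9 at its dimmer probe set went from -1.92 to -1.61 with the covariate and Pla2g2d from 1.25 to 1.01, while Por went from 2.00 to 2.44 and Agpat1 from 1.44 to 1.92.

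The young rats, whose arrays had no part in the choice, were then examined at the same probe sets. YSR exceeded YR on average at 434 of the 675 (64.3%), against 48.9% of all bright probe sets. YR exceeded YSR at 512 of the 855 (59.9%). Over all bright probe sets, overlapping ones included, the difference in the young had the same sign as in the old at 56.2%. The share of the 855 lay little above this. In the young, 62 of the 675 (9.19%) also had every YSR array above every YR array, against 4.6% of bright probe sets, and 14 (2.07%) the reverse, against 3.98%. Of the 855, 63 (7.37%) had every YR array higher and 15 (1.75%) every YSR array higher. Apart from the 106 probe sets low in YSR array 1, YSR was higher at 396 of 569 (69.6%), where the share was 50.9% over all such bright probe sets. All 3 YR arrays had a higher Gapdh ratio than YSR arrays 2 and 3, so that in the young this ratio and fixation run together apart from YSR array 1, and their parts cannot be told apart. The shift was small, with medians of 0.08 and -0.04 (log2) in the young against 0.40 and -0.29 in the old.

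Single genes differed in this. Tgfb1 had 8.50, 10.67 and 10.49 in YSR and 8.57, 8.06 and 7.05 in YR, a difference of 1.99, where the low values belong to the 4 arrays with a Gapdh ratio over 1. Pfkl differed by 0.78 in the young and Gnai2 by 0.96. The difference between YSR and YR was -0.30 for Lyve1, -0.27 for Stab1, 0.11 for Abca1, -0.01 for Gal and -0.13 for Tagln. Ogn differed by -0.55, Col11a1 by -0.99 and Cxcl3 by -1.20 in the young, the same direction as in the old. The interaction of fixation and age had 0 adjusted calls in limma over 31042 probe sets (1181, 3.8%, at unadjusted p under 0.05) and a smallest adjusted p of 0.978, so that no gene was shown to respond differently at the 2 ages.

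**Figure D5:**
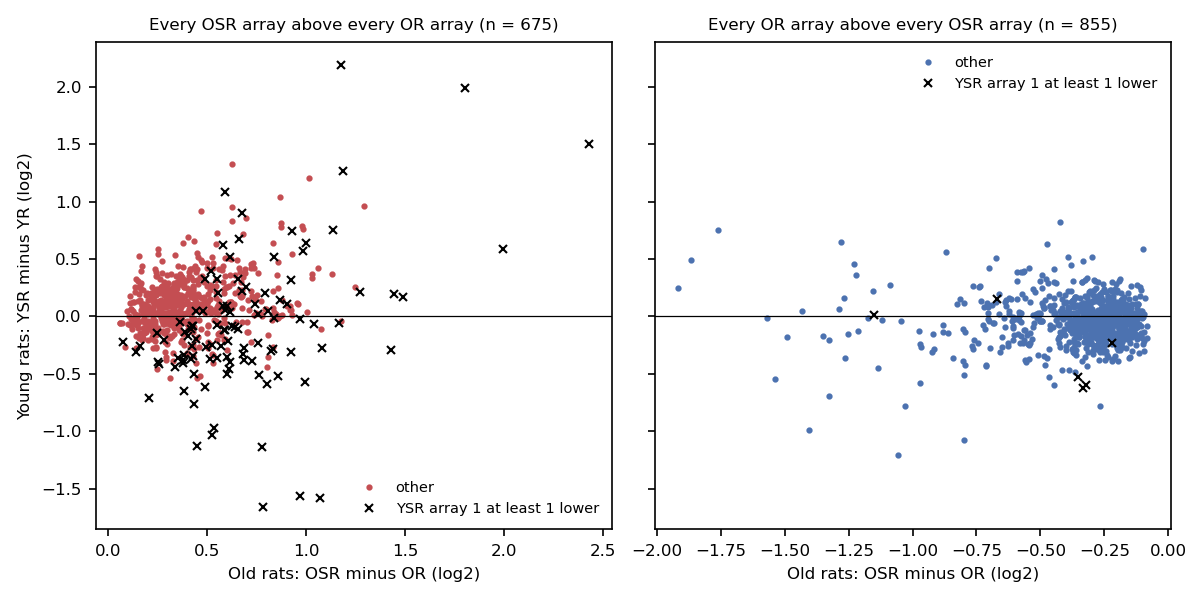
Difference between YSR and YR (vertical axis, log2) against the difference between OSR and OR (horizontal axis, log2) for the 675 bright probe sets with OSR higher (left) and the 855 with OR higher (right), with 1 point per probe set. Crosses mark probe sets where YSR array 1 was at least 1 below the other YSR arrays, 106 on the left and 6 on the right, and on the left 434 points lie above 0.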

How the data were processed

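RNA of the fracture hematoma was measured on 12 Affymetrix rat arrays, each with a pool of 3 animals. The deposited values are linear intensity signals that the authors made with GCOS 1.2, per the labels and submitters' processing notes, and each array had a trimmed mean of 500. Intensities under 1 (558 values) were set to 1 and log2 was taken, with no further normalization. The files hold no scan dates, so no batch could be examined, and the number of arrays limits the precision. A probe set was named only where the platform table gave 1 symbol (20832 probe sets). All 12 arrays were fitted together with limma 3.58.1 (lmFit, eBayes with trend) in R 4.3.3, with Benjamini-Hochberg adjustment over 31042 probe sets. In simulated data for OSR against OR, 30 of 50 bright probe sets with a difference of 1 and 45 of 50 with a difference of 2 were recovered. There were 5 false calls. The simulated noise was normal and independent between probe sets. It held no shared differences in muscle or Gapdh ratio, so the recovery in the real pools is not known from it.

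Genes were named by rule, the 10 with the largest difference and the 10 with the widest gap in each direction among separating bright probe sets with 1 symbol, with up to 5 members of each gene list and 9 fixed genes. Other separating list members were named after their values had been seen, as were Tpm2, Myh1, Cd68, Csf1r, Csf1, Dpt, Fbln2, Abca2 and the probe set 1375422_at. Members and lists were chosen with earlier results of these data known. Alternatives were quantile normalization, a pseudocount of 16, brightness limits of 7 and 9, no dim probe sets, no intensity trend, the 6 old arrays alone, the methods' t-test, a replicate block, each OSR or OR array left out, and muscle level as a covariate. The Gapdh ratio as a covariate, and the fits without the arrays of highest Gapdh ratio or lowest muscle level, were added after the data had been seen. Numbers did not pair the arrays, since same-numbered OSR and OR arrays had deviations that correlated by -0.41 to 0.22.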

Additional observations from a re-analysis of the deposited data

How the results depend on the processing

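The count of adjusted calls between OSR and OR was 0 in every alternative except without OSR array 3, where limma called 1 probe set without a gene symbol (1383640_at, difference -3.51, adjusted p = 0.0489), so that it ranged from 0 to 1 when single arrays were left out. For the interaction it was 0 in each alternative run. The replicate number as a block gave 0 calls for both. With OSR higher, the 675 separating probe sets became 626 after quantile normalization, 708 with a pseudocount of 16, 920 at a brightness limit of 7 and 420 at a limit of 9. With OR higher, the 855 became 824, 867, 1020 and 680. Leaving out 1 array leaves fewer values to overlap, and the counts then ran from 1027 to 1687 and from 1317 to 1972. Of 98 probe sets examined by name, 96 kept their direction in all 17 alternatives. The exceptions were the brightest of Adipor2, whose difference of 0.39 was -0.0167 without OR array 1 (range -0.0167 to 0.68 when single arrays were left out) and -0.0167 without the 2 arrays of highest Gapdh ratio, and Acta1, whose difference of 0.74 became -0.41 without OSR array 2, -0.83 without OR array 2 and -0.61 with muscle level as a covariate (and 2.59 without OSR array 1), and these alternatives change the muscle content compared. Many of the 98 were chosen for sides without overlap, and leaving out 1 array cannot reverse these. Some list members chosen by rule, Tpm1 among them, lay outside the 98 and did reverse, so the 96 do not cover every gene given here. Among dim ones, Calcr went from -1.02 to 0.29 without OSR array 1 and OR array 2. Gp5 went from 0.44 to -0.44 without OR array 1, and Axin2 from -1.445 to 0.51 without OSR array 3. Of bright ones, Tpm1 went from 1.02 to -0.08 and Ppbp from -0.31 to 0.07 with muscle level as a covariate. Cd22, also bright, went from 0.16 to -0.10 without OR array 1. These are examples, and other list members reversed as well. With the Gapdh ratio as a covariate, 5 of the 675 and none of the 855 changed sign, against 1014 of all 12500 bright probe sets. With 3 pools a side, the smallest p of an exact permutation test is 0.1, and probe sets near the background of the array have the least certain values.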

Other observations

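Below the brightness limit, further chemokines separated the sides in old rats, where 5.04% of all 31042 probe sets had every OSR array higher and 5.74% every OR array higher. Ccl24, an eosinophil attractant that macrophages make, had log2 signals of 8.01, 8.65 and 8.83 in OSR and 7.50, 6.99 and 7.02 in OR. Ccl20 had 6.99, 6.08 and 6.80 against 7.997, 7.82 and 7.76, and the interferon-induced Cxcl11 5.66, 6.60 and 6.48 against 7.27, 8.25 and 7.62.

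The cartilage proteins Comp and Col10a1 went opposite ways, with 6.72, 6.73 and 6.42 in OSR and 4.87, 5.29 and 6.06 in OR for Comp, and 5.35, 4.69 and 4.64 against 6.52, 5.98 and 5.90 for Col10a1. Pparg, the regulator of adipocyte formation, had 6.31, 6.74 and 6.33 against 7.23, 7.85 and 7.45. The nuclear receptor Nr4a2 had 6.83, 6.87 and 6.92 against 7.82, 7.55 and 7.99, and the BMP antagonist Grem1 had 7.95, 7.37 and 6.32 against 8.40, 8.69 and 8.53. All are dim signals, and none passed the adjusted test in limma.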
